A study of Mus musculus with 6 samples.

Results

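Transcription regulators of muscle fiber type, 9 genes in all, were examined in the leg muscle of fetal mice with and without the long noncoding RNA *SYISL*. The 9 genes are *Ppargc1a*, *Esrrg*, *Esrra*, *Tbx15*, *Sox6*, *Nfix*, *Prox1*, *Nfatc1* and *Vgll2*, out of 56262 genes in the count table. They were taken by name from the regulators known to set fiber type, with earlier results of these data known. The samples were 3 wild type (WT) and 3 *SYISL* KO samples of leg muscle from fetuses at embryonic day 18.5, and whole-tissue RNA was sequenced. According to the methods, mice of the same genotype were mated, so each KO fetus also developed in a KO mother, and the genotype of the fetus and that of the mother cannot be told apart. The KO animals came from an established line and the WT animals from an animal center, and with such matings no litter held both genotypes. Nothing states that the 3 samples of a genotype came from separate litters, and the p-values measure the spread between these samples. The tissue holds several cell types, and in bulk RNA fewer cells of a type and less RNA per cell cannot be told apart.

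Skeletal muscle fibers differ in their myosins and in their metabolism. Slow fibers contract slowly and rely on oxidative metabolism, and fast fibers contract quickly and range from oxidative to glycolytic. In the fetus, primary fibers form first and mostly carry slow myosin, and the secondary fibers that form around them mostly carry neonatal and later fast myosins. Several transcription regulators set this choice. Sox6, Tbx15 and Nfix act on the side of the fast and fetal programs. Prox1, Nfatc1 and Vgll2 act on the side of the slow program, Nfatc1 as a target of the calcium-dependent phosphatase calcineurin. PGC-1α, the product of *Ppargc1a*, is a coactivator that binds the estrogen-related receptors ERRα (*Esrra*) and ERRγ (*Esrrg*) and turns on genes of mitochondrial respiration.

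The depth was 82054811 to 102233181 counts per sample, and each of the 9 genes was well covered, with between 287 and 24516 counts in any sample. At this depth, 1 count was worth 0.0095 to 0.0121 CPM, the counts of a gene per 1000000 scaled counts of the library. *SYISL* itself has no symbol in the annotation used. Its host gene *Synpo2* rose from 136 ± 4.21 to 214 ± 18.9 CPM (SD over 3 samples each), and the 4 other genes annotated inside it never exceeded 2 counts. These counts therefore did not check the deletion. The libraries of the genotypes also differed in cell type markers. All 9 skeletal muscle markers were detected, and 5 were called higher in KO and 0 lower at the fold threshold of 1.5. With an edgeR adjusted p under 0.05 alone, 5 were higher and 2 lower, the latter being the myogenic factors *Myod1* and *Myog*. The summed level of the 9 markers, of which *Myh8* was the highest, was 16155 to 18055 CPM in WT and 34227 to 41149 CPM in KO. All 10 keratinocyte markers were lower in KO, with a sum of 16622 to 24699 CPM in WT and 734 to 841 CPM in KO. All 9 red blood cell markers were also lower in KO, from 3950 to 5193 CPM in WT to 548 to 669 CPM in KO. Of 9 fat markers, 8 were called higher and 1 lower, and their sum was 120 to 153 CPM in WT against 368 to 429 CPM in KO. No marker of these lists was at 0 in all libraries.

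All 9 regulators were expressed in fetal leg muscle and passed the filter on low counts, and all 9 had a higher mean in KO than in WT. *Ppargc1a* and *Esrrg* rose by more than 1.5-fold. *Esrra*, *Tbx15*, *Sox6* and *Prox1* rose by less than that, and *Nfix*, *Nfatc1* and *Vgll2* did not pass the test. When both a change over 1.5-fold and an edgeR adjusted p under 0.05 were required, 2 of the 9 were called higher and 0 lower, beside 16.7% of all 22071 genes tested, 8.31% higher and 8.39% lower. With an adjusted p alone, 6 were called higher and 0 lower, beside 45% of all genes tested, 21.9% higher and 23.1% lower. In 7 of the 9 genes the KO values lay above all WT values, beside 27.3% of all genes tested. In the other direction it was 0 of the 9 beside 28.5%, and 55.9% of all genes showed no overlap in either direction. The median log2 fold change of the 9 genes was 0.21, beside a median of -0.0041 over all genes tested. The plot of CPM by sample shows the single values, and the plot of fold changes shows them with their intervals.

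**Figure D1:**
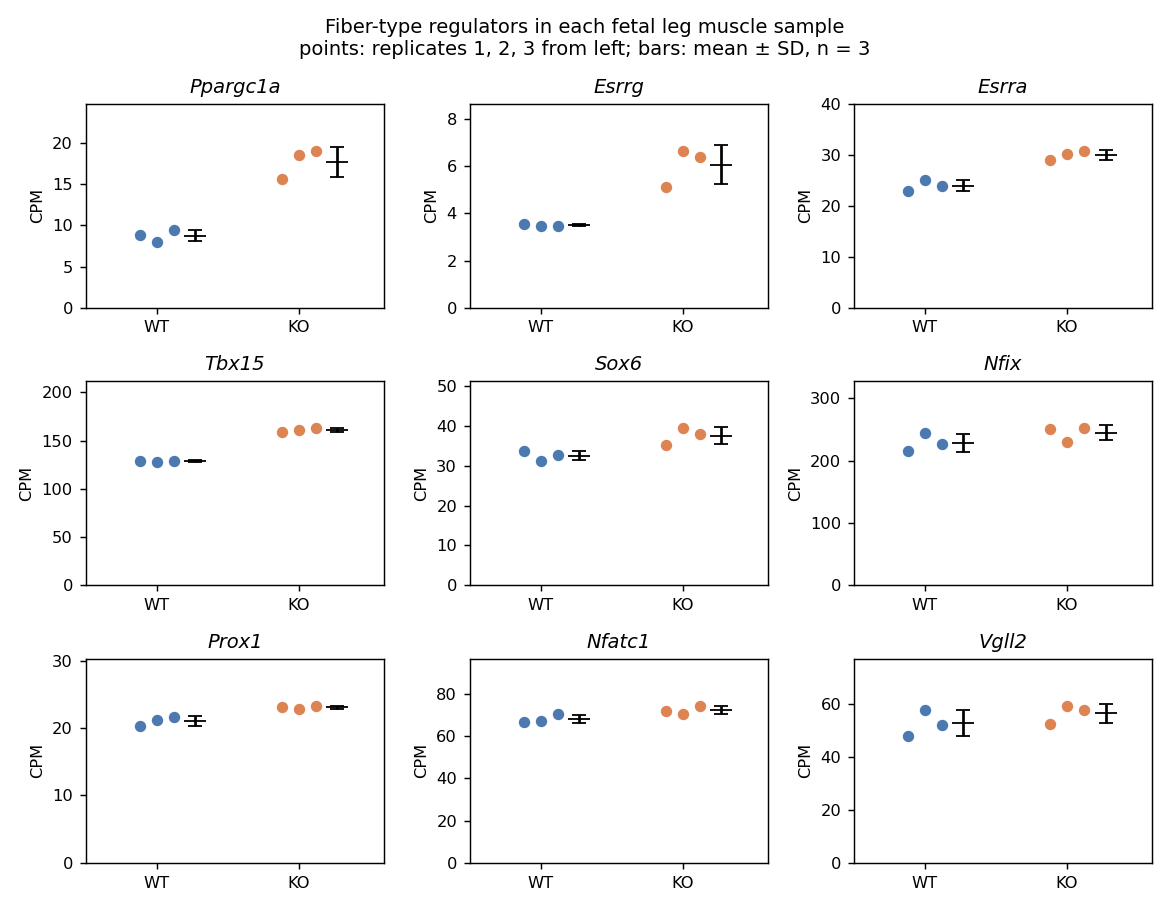
CPM of the 9 regulators in each sample (y axes in CPM from 0), with WT in blue and KO in orange, replicates 1 to 3 from left to right, and mean ± SD beside them (n = 3 each). *Ppargc1a* and *Esrrg* show the widest gap between the genotypes, and the points of *Nfix* and *Vgll2* overlap.

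**Figure D2:**
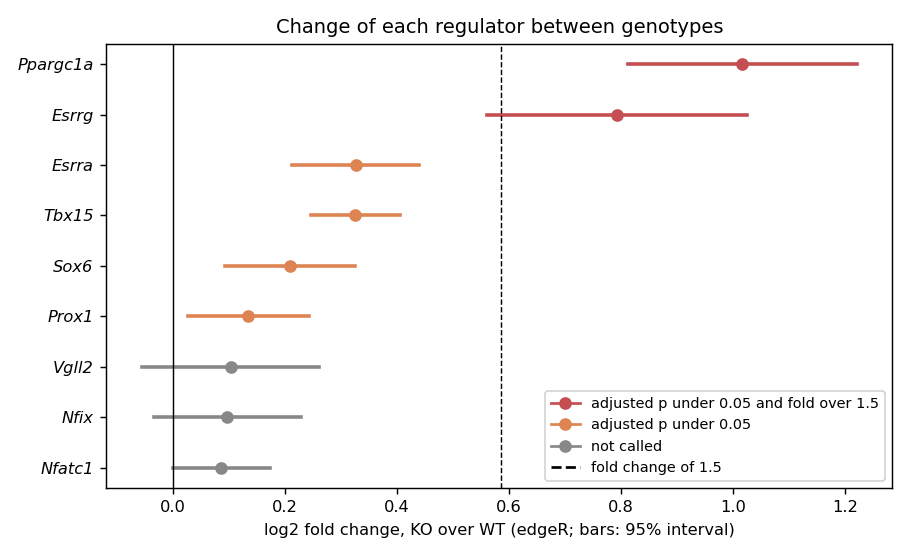
Log2 fold change of KO over WT for each regulator with its 95% interval from edgeR, where the dashed line marks a fold change of 1.5 and the color marks the call. *Ppargc1a* (1.02) and *Esrrg* (0.79) lie beyond the dashed line, and the intervals of *Nfatc1*, *Nfix* and *Vgll2* include 0.

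*Ppargc1a* had the largest change of the 9 genes. The gene (ENSMUSG00000029167.13) lies on the minus strand of chromosome 5 from 51454250 to 51567726 in mm10. The WT samples gave 834, 664 and 1000 counts for *Ppargc1a*, against 1470, 1766 and 1856 for KO. These are 8.81, 8.04 and 9.47 CPM in WT and 15.7, 18.5 and 19.1 CPM in KO, so the lowest KO sample was well above the highest WT sample. The KO mean, 17.8 ± 1.82 CPM, exceeded the WT mean of 8.77 ± 0.720 CPM (SD, n = 3, as for every mean here), a 2.02-fold rise or 1.02 ± 0.091 (SE) on the log2 scale (adjusted p = 1.78e-05, edgeR). Among the KO samples, replicate 1 was the lowest for *Ppargc1a*, and it was also the lowest in the summed skeletal muscle markers. WT replicate 2 held the same place among the WT samples in both measures. This order was not particular to *Ppargc1a*, as KO replicate 1 was the lowest for 6 of the 9 genes and WT replicate 2 for 4. The bases before the start of *Ppargc1a* are shown here because it moved most, beside those of *Vgll2*, which did not pass the test. For both genes the RefSeq table (GRCm38.p6, the assembly of mm10) lists a single start, and counts per gene do not show which start was used. The capitals mark the letters CANNTG, the general form of the E-box, read on both strands. MyoD and related factors bind E-boxes, but not every match to this form need be a site of theirs.
Ppargc1a, chr5:51567726-51567975, minus strand: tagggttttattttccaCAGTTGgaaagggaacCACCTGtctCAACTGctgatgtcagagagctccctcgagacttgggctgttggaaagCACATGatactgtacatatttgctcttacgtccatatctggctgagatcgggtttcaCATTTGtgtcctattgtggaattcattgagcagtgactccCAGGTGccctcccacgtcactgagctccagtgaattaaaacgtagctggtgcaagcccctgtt
Vgll2, chr10:52022252-52022501, plus strand: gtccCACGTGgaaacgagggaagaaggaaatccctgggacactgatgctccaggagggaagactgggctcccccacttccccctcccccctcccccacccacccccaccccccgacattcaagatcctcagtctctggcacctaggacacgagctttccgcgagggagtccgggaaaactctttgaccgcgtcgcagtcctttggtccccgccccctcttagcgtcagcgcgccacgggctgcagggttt
Within these 250 bases, *Ppargc1a* held 6 matches to CANNTG and *Vgll2* held 1. *Esrra*, which also has a single listed start but was higher in KO, held 1 as well. *Esrrg*, also higher in KO, held at most 1 before each of its 4 listed starts. Before the several listed starts of other members the number was 1 to 3 for *Sox6*, 0 and 2 for *Prox1* and 0 to 2 for *Nfix*. Whether the number of matches goes with the change was not tested. Of 32851 promoters of the same length, 0.27% held 6 or more and 66.22% held at least 1. A match of letters is a description and does not show that a factor was bound there.

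*Esrrg* rose as well, from a low level. The gene (ENSMUSG00000026610.13, chromosome 1, 187608791 to 188214885, plus strand) encodes ERRγ, a receptor that is abundant in oxidative muscle and heart. Counts of *Esrrg* were 336, 287 and 367 in WT, against 480, 634 and 623 in KO. The CPM values of *Esrrg* were close together in WT (3.55, 3.47 and 3.48) and more spread in KO (5.12, 6.65 and 6.40), again with KO replicate 1 lowest and with no overlap. The mean rose from 3.50 ± 0.0430 to 6.06 ± 0.822 CPM, a 1.73-fold rise or 0.79 ± 0.10 (SE) on the log2 scale (adjusted p = 0.000214, edgeR). Its 95% interval, 1.47-fold to 2.03-fold, reached below the fold threshold of 1.5. *Esrra* (ENSMUSG00000024955.15, chromosome 19, 6910977 to 6921813, minus strand), which encodes ERRα, was the more abundant of the pair. Its values were 22.89, 24.98 and 23.91 CPM in WT and 28.9, 30.2 and 30.8 CPM in KO, without overlap. *Esrra* rose 1.25-fold, or 0.33 ± 0.050 (SE) on the log2 scale (adjusted p = 0.000613, edgeR), and the upper end of its 95% interval was 1.36-fold. Exons of *Esrra* share 73 bases with *Trmt112* on the opposite strand and 91 bases with *Mir6990* on the same strand. The strand setting of the counting is not stated, so reads from the bases of *Trmt112* cannot be assigned. Those from the bases of *Mir6990* cannot be assigned at any strand setting.

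The paralogs of these genes did not all move with them. *Ppargc1b*, which encodes the related coactivator PGC-1β, was at 7.75 ± 0.138 CPM in the WT and 8.53 ± 0.503 CPM in the KO samples (log2 fold change 0.14, edgeR adjusted p = 0.123). *Pprc1*, the third member of the family, fell from 91.0 ± 2.48 to 69.2 ± 3.26 CPM (-0.40 on the log2 scale, adjusted p = 7.71e-05 with edgeR). *Esrrb*, which encodes ERRβ, had 4.61 ± 0.244 and 4.89 ± 0.438 CPM and did not pass the test. Shares within a family were taken from FPKM, the CPM divided by the exon length in kilobases, so that genes of different length could be set side by side. *Ppargc1a* held 7.50 ± 0.645% of the summed FPKM of the 3 PGC-1 genes in WT and 17.0 ± 1.99% in KO. *Esrrg* held 8.33 ± 0.427% of the ERR genes in WT and 11.3 ± 1.06% in KO, while the share of *Esrra* was 80.4 ± 0.371% and 79.3 ± 1.39%. The shares of *Ppargc1a* and *Esrrg* did not overlap between the genotypes (exact two-sided permutation test, p = 0.1 for each, adjusted over 7 shares to 0.14), and with 3 samples against 3 no p can be below 0.1. The ratio of *Ppargc1a* to *Ppargc1b* on the FPKM scale was 0.684 in WT and 1.26 in KO, a difference of 0.88 on the log2 scale. The ratio of *Esrrg* to *Esrra* was 0.103 in WT and 0.142 in KO, a log2 difference of 0.46. These ratios are geometric means of 3 samples, and neither overlapped between the genotypes (exact permutation test, p = 0.1 for each, adjusted over 6 ratios to 0.20).

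**Figure D3:**
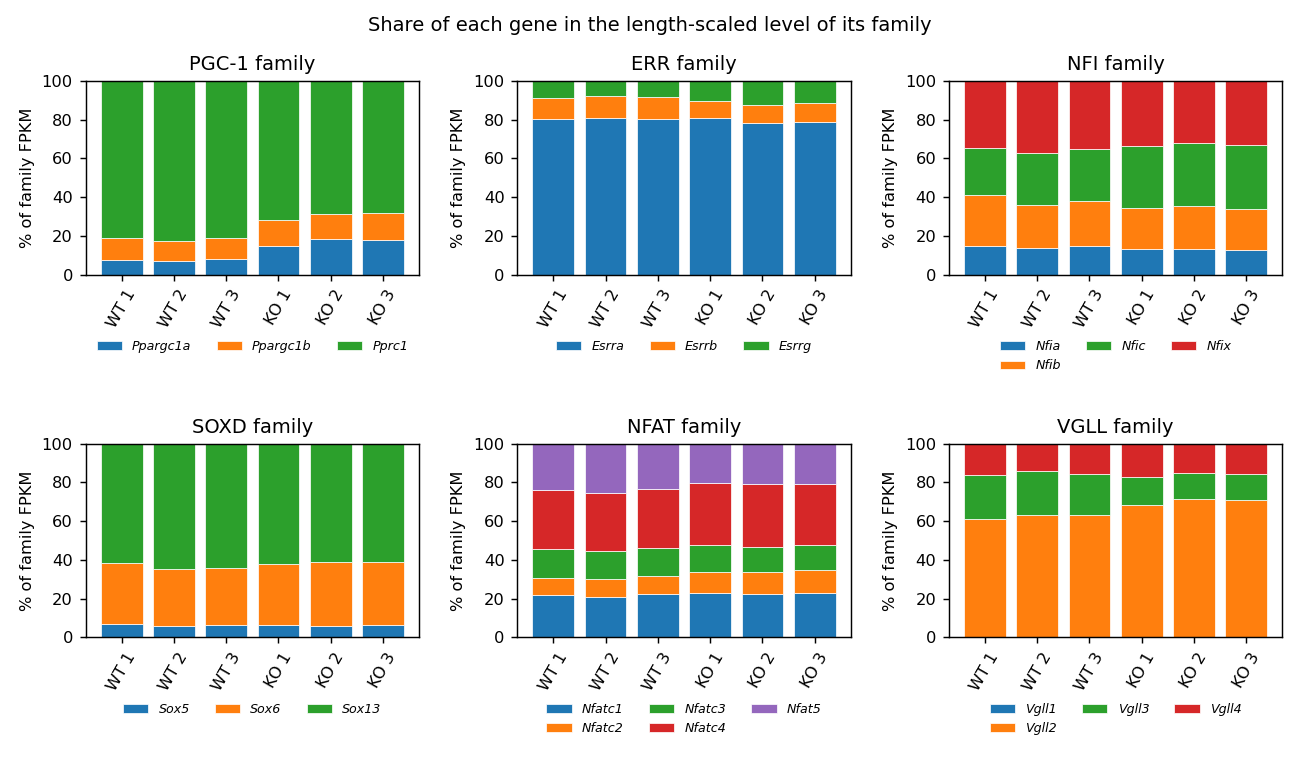
Share of each gene in the summed FPKM of its family (y axis, percent) for each of the 6 samples (x axis), with 1 color per gene. The *Ppargc1a* segment is 6.77% to 8.0% in WT and 14.7% to 18.3% in KO, and the *Vgll3* segment is narrower in the 3 KO samples.

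Genes that work with PGC-1α and the ERRs moved in both directions. Of 11 partners tested, 2 were called higher and 0 lower at the fold threshold. *Ppara*, a nuclear receptor of fatty acid oxidation, rose from 3.02 ± 0.284 to 6.62 ± 0.257 CPM (log2 fold change 1.13), and *Prkaa2*, a catalytic subunit of the energy sensor AMPK, rose from 29.4 ± 2.40 to 49.8 ± 6.37 CPM (0.76). *Perm1*, a muscle regulator that PGC-1α and the ERRs are known to induce, fell from 64.9 ± 8.70 to 48.8 ± 4.09 CPM (log2 fold change -0.41, edgeR adjusted p = 0.00573), less than 1.5-fold. *Nrf1*, a factor of mitochondrial biogenesis, also fell by less than 1.5-fold (-0.29), and *Tfam*, which maintains the mitochondrial genome, did not pass the test (0.086). A list of 15 oxidative genes known as PGC-1 or ERR targets had 11 genes called higher and 0 lower at the fold threshold, beside 8.31% and 8.39% of all genes tested, and a median log2 fold change of 0.80. Among them, *Ckmt2*, the mitochondrial creatine kinase of muscle, had a log2 fold change of 1.74. *Slc25a4*, which exchanges ADP and ATP across the mitochondrial membrane, had 1.07, and *Idh3a*, a subunit of an enzyme of the citric acid cycle, had 0.97. *Fndc5* was the exception in direction, with a log2 fold change of -0.34. Fat also expresses *Ppargc1a*, *Esrrg* and oxidative genes, and its markers rose as given above. The part of fat cells in the values was not tested. Heart expresses these genes too, but the samples were of leg muscle. The 6 heart markers, of which *Myh6* was the highest, had a sum of 9.38 to 11.1 CPM in WT against 16.04 to 17.99 CPM in KO. Of them, 2 were tested and 1 was called higher.

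Of the regulators tied to the fast and fetal programs, *Tbx15* gave the clearest difference. *Tbx15* (ENSMUSG00000027868.11, chromosome 3, 99240381 to 99354259, plus strand) is a T-box factor found in glycolytic fast fibers. It had 129, 127 and 129 CPM in WT and 159, 161 and 163 CPM in KO, so the replicates of each genotype were almost level and far from those of the other. The mean rose from 128 ± 0.874 to 161 ± 1.93 CPM, a 1.25-fold rise or 0.33 ± 0.035 (SE) on the log2 scale (adjusted p = 6.29e-05, edgeR). The part of cells other than muscle fibers in the *Tbx15* values was not tested. Of the relatives of *Tbx15*, *Tbx1* rose (log2 fold change 0.48, edgeR adjusted p = 0.000602), and *Tbx18* (-0.092) and *Tbx22* (-1.18, at less than 0.2 CPM on average in each genotype) did not pass the test.

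*Sox6* showed a smaller rise. *Sox6* (ENSMUSG00000051910.13, chromosome 7, 115470872 to 116038796, minus strand) encodes a repressor of slow fiber genes. Its values were 33.6, 31.3 and 32.6 CPM in WT and 35.3, 39.4 and 38.1 CPM in KO, without overlap, and KO replicate 1 was close to WT replicate 1. *Sox6* rose 1.16-fold, or 0.21 ± 0.051 (SE) on the log2 scale (adjusted p = 0.00890, edgeR). *Sox5* (0.13) and *Sox13* (0.067), the other genes of the SOXD group, did not pass the test, and *Sox6* held 30.2 ± 1.01% of the summed FPKM of the group in WT and 32.2 ± 0.919% in KO, with overlap. *Sox6* is also used in cartilage and in red blood cell precursors. Of 10 cartilage markers, 6 were called lower at the fold threshold, their summed level was 668 to 810 CPM in WT and 616 to 621 CPM in KO, and the red blood cell sum fell as given above. The part of these cells in the *Sox6* values was not tested.

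*Nfix* was the most counted of the 9 genes and did not pass the test. *Nfix* (ENSMUSG00000001911.16, chromosome 8, 84699876 to 84800344, minus strand) drives the switch from the embryonic to the fetal muscle program. It had 215, 244 and 227 CPM in WT and 252, 231 and 252 CPM in KO, and WT replicate 2 lay above KO replicate 2. The log2 fold change of *Nfix* was 0.097 ± 0.058 (SE, adjusted p = 0.210, edgeR), with a 95% interval from 0.976-fold to 1.17-fold. Exons of *Nfix* share 137 of 7351 bases with a gene on the opposite strand, *G430095P16Rik*. Within its family, *Nfic* rose from 152 ± 11.5 to 218 ± 7.93 CPM (log2 fold change 0.52, edgeR adjusted p = 7.82e-05), and *Nfia* (0.078) and *Nfib* (0.061) did not pass the test. The share of *Nfix* in the family FPKM was 35.6 ± 1.28% in WT and 32.9 ± 0.881% in KO, that of *Nfic* 26.2 ± 1.27% and 32.5 ± 0.553%, and neither overlapped (exact permutation test, p = 0.1 for each), but with lengths of the longest transcript the *Nfix* shares did (36.4% and 34.2%). The log2 ratio of *Nfix* to *Nfatc4*, a gene that Nfix is known to repress, was 1.28 ± 0.0660 in WT and 1.28 ± 0.0819 in KO.

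The regulators tied to the slow program differed between the genotypes by estimates of at most 1.10-fold. *Prox1* (ENSMUSG00000010175.13, chromosome 1, 190118035 to 190170714, minus strand) encodes a homeobox factor needed for slow fiber identity. It had 20.3, 21.2 and 21.6 CPM in WT and 23.2, 22.9 and 23.3 CPM in KO, which did not overlap. The 1.10-fold rise of *Prox1*, a log2 fold change of 0.13 (standard error 0.048), passed the test narrowly (edgeR adjusted p = 0.0454) and no longer passed it without any 1 of the 6 samples, with adjusted p between 0.0658 and 0.114. *Prox1* also defines lymphatic endothelium. Of 6 markers of that cell type, 3 passed an adjusted p of 0.05 in the higher direction and 0 in the lower, and their sum was 185 to 191 CPM in WT and 251 to 270 CPM in KO. The part of these cells in the *Prox1* values was not tested. An antisense gene, *Prox1os*, shares 133 bases with its exons.

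*Nfatc1* (ENSMUSG00000033016.16, chromosome 18, 80606205 to 80713071, minus strand) carries calcineurin signals to slow fiber genes. It had 66.7, 67.2 and 70.2 CPM in WT and 71.95, 70.5 and 74.2 CPM in KO, and the lowest KO value was just above the highest WT value. The log2 fold change of *Nfatc1* was 0.085 ± 0.038 (SE, adjusted p = 0.101, edgeR), with a 95% interval from 0.999-fold to 1.13-fold. Its paralogs moved in different directions. *Nfatc2* rose (log2 fold change 0.34), as did *Nfatc4* (0.10), and *Nfatc3* (-0.15) and *Nfat5* (-0.23) fell, each with an edgeR adjusted p under 0.05 and a change of less than 1.5-fold. The log2 ratio of *Nfatc1* to *Nfatc3* was 0.57 ± 0.0466 in WT and 0.80 ± 0.0525 in KO, without overlap (exact permutation test, p = 0.1, adjusted over 6 ratios to 0.20). Among 10 genes of calcineurin and its regulators, 3 were called higher and 0 lower at the fold threshold, and 8 passed the adjusted p alone, all higher. *Myoz1* (log2 fold change 1.56) and *Myoz2* (1.22) encode Z-disc proteins that bind calcineurin, the first in fast and the second in slow fibers, and *Rcan2* (0.68) encodes a calcineurin inhibitor. *Rcan1*, which NFAT factors are known to induce, had the same mean in WT (38.3 ± 1.43 CPM) and KO (38.3 ± 0.295 CPM), with a 95% interval of the log2 fold change from -0.091 to 0.091.

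*Vgll2* (ENSMUSG00000049641.15, chromosome 10, 52022502 to 52028471, plus strand) encodes a muscle cofactor of the TEAD factors. It had 48.0, 57.8 and 52.1 CPM in WT and 52.4, 59.2 and 57.8 CPM in KO, and the groups overlapped. The log2 fold change of *Vgll2* was 0.10 ± 0.070 (SE, adjusted p = 0.271, edgeR), with a 95% interval from 0.962-fold to 1.20-fold. Without WT replicate 2, the highest WT sample, it was 0.17 and passed the test narrowly (edgeR adjusted p = 0.0485), and without WT replicate 1, the lowest, it was 0.039 (edgeR adjusted p = 0.668). Other genes of the VGLL and TEAD families moved in both directions. *Vgll3* fell from 80.1 ± 7.11 to 48.0 ± 0.641 CPM (log2 fold change -0.74, edgeR adjusted p = 8.37e-06), and *Vgll4* (0.0068) did not pass the test. *Vgll2* held 62.6 ± 1.10% of the summed FPKM of the VGLL genes in WT and 70.1 ± 1.73% in KO, and *Vgll3* held 22.1 ± 0.631% and 13.9 ± 0.715%, both without overlap (exact permutation test, p = 0.1 for each). Of the TEAD genes, *Tead4* fell beyond 1.5-fold (log2 fold change -0.61), *Tead2* (-0.36) and *Tead3* (-0.40) fell by less, and *Tead1* rose (0.14).

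Beyond these 9 genes, 67 other regulators from lists of families and partners were examined, of which 66 were tested. At the fold threshold 7 were called higher and 4 lower, together the same share as the 16.7% of all genes tested. With the adjusted p alone 25 were higher and 13 lower, beside 21.9% and 23.1% of all genes. Their median log2 fold change was 0.068. *Mafa*, a large MAF factor that acts on fast myosin genes in muscle, rose from 12.2 ± 0.673 to 29.4 ± 2.46 CPM (log2 fold change 1.27, edgeR adjusted p = 1.06e-06), and the related *Maf* rose by less than 1.5-fold (0.36). Of 8 genes of the MEF2 factors and the histone deacetylases that restrain them, 5 passed the adjusted p, all higher, and *Mef2b* (0.15 CPM in WT, 0.28 CPM in KO) rose beyond 1.5-fold. *Mef2c* rose from 392 ± 17.3 to 482 ± 15.1 CPM (0.30), and *Mef2d* by 0.20. *Dach2*, which encodes a corepressor, fell from 1.07 ± 0.186 to 0.601 ± 0.0392 CPM (-0.83).

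Fiber type genes on which such factors act included larger changes. All 15 fast fiber genes tested were called higher at the fold threshold, with a median log2 fold change of 1.54, and of 11 slow fiber genes 5 were called higher and 0 lower, with a median of 0.23. The largest of the fast genes were *Mybpc2* (4.31), *Pvalb* (4.19) and *Myh1* (3.10). Among the slow genes, *Myl2* (1.65), *Myoz2* (1.22) and *Myh7* (0.93) rose beyond 1.5-fold, while *Tnni1* (-0.19) and *Myh7b* (-0.35) fell by less than that. The plot of gene lists sets the 9 regulators beside these genes and the cell type markers.

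**Figure D4:**
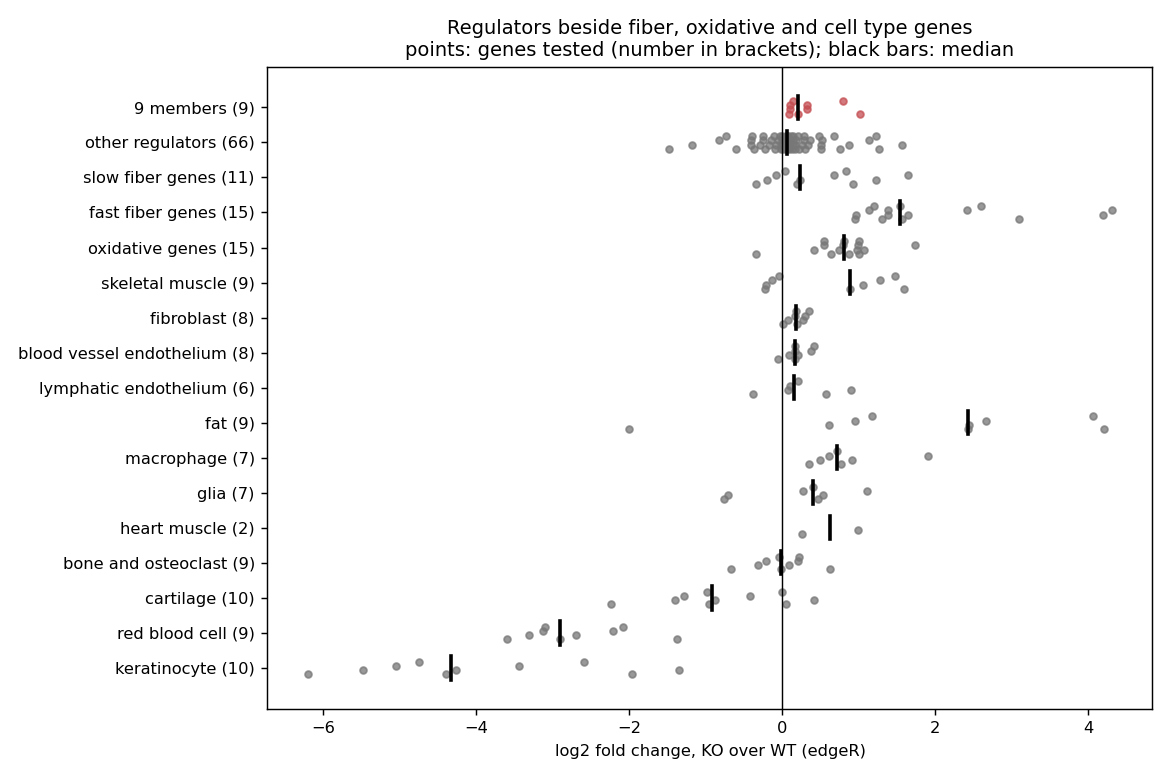
Log2 fold change of KO over WT (x axis) for the genes tested in each list (y axis, number of genes in brackets), with points for genes and black bars for medians. The 9 regulators, in red, have a median of 0.21, between the slow fiber genes (0.23) and the fibroblast markers (0.18). The median is 0.17 for vessel endothelium markers, 1.54 for fast fiber genes and 2.42 for fat markers.

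Markers of other cells of the leg differed in how they moved. The 8 fibroblast markers had a median log2 fold change of 0.18, with 5 passing the adjusted p, all higher, and a sum of 28702 to 31684 CPM in WT and 34891 to 36043 CPM in KO. The 8 markers of vessel endothelium had a median of 0.17, with 6 passing the adjusted p, all higher, and a sum of 724 to 757 CPM in WT and 833 to 873 CPM in KO. The log2 fold changes ranged from 0.011 to 0.35 for the fibroblast markers and from -0.35 to 1.65 for the slow fiber genes. Other lists moved further, with a median of 2.42 for fat, 0.72 for macrophage, 0.40 for glia, -0.92 for cartilage, -2.91 for red blood cell and -4.33 for keratinocyte markers. The part of a shift in tissue content in these values was not tested. The 9 skeletal muscle markers themselves moved apart. The myogenic factors *Myod1* (-0.22) and *Myog* (-0.22) were lower in KO by less than 1.5-fold, unlike the 9 members, whose estimates were all higher. *Acta1* (1.47), *Ckm* (1.27) and *Myh8* (1.59) were among the 5 called higher. The other 2, of which *Pax7* (-0.13, edgeR adjusted p = 0.0763) was 1, did not pass the test.

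The members were also set against muscle transcript, by dividing each count by the summed counts of the 9 skeletal muscle markers of the same library. This scale was chosen after the data were seen. Since the marker sum rose 2.24-fold and no member rose as much, each member had to be lower in KO on it, and the values are a description. Of all genes tested, 97.5% were lower on this scale and 91.4% were lower without overlap, with a median log2 difference of -1.17. *Ppargc1a* stood at 507 ± 25.8 counts per 1000000 marker counts in WT and 458 ± 5.88 in KO, and *Esrrg* at 203 ± 10.5 and 156 ± 6.31. The KO values of *Ppargc1a*, 15.7 to 19.1 CPM, were 452 to 464 counts per 1000000 marker counts. Such a narrowing was not general. The KO values of *Tbx15*, 159 to 163 CPM, were 3937 to 4642 on this scale, and those of *Esrra*, 28.9 to 30.8 CPM, were 737 to 845.

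The members differed widely in abundance. On the FPKM scale, *Tbx15* stood at 34.3 ± 0.233 in WT, *Vgll2* at 31.9 ± 2.97 and *Nfix* at 31.1 ± 2.01, and these neighbors overlapped in their sample values. *Nfatc1* followed at 9.11 ± 0.256 and *Esrra* at 5.45 ± 0.238. *Prox1* (2.51 ± 0.0814), *Sox6* (2.19 ± 0.0773), *Ppargc1a* (1.33 ± 0.109) and *Esrrg* (0.564 ± 0.00693) were lower, and none of these overlapped its neighbor. In KO, *Tbx15* was apart from the others at 43.0 ± 0.515 FPKM, and *Ppargc1a* (2.69 ± 0.277) reached the level of *Prox1* (2.75 ± 0.0254) and *Sox6* (2.53 ± 0.143), whose values it overlapped. The order depended on the length used. With the length of the longest transcript in place of all exons, *Nfix* was first in WT at 41.8 FPKM, ahead of *Tbx15* at 36.0 and *Vgll2* at 31.9, and *Sox6* (3.75) stood above *Prox1* (2.66). Replicates of a genotype varied little, with a coefficient of variation in CPM between 0.680% (*Tbx15* in WT) and 13.6% (*Esrrg* in KO).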

How the data were processed

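Whole-tissue RNA of 3 WT and 3 KO leg muscle samples was sequenced. Per the labels, the authors trimmed reads with Trim Galore 0.6.6, mapped them to mm10 with HISAT2 2.2.1 and counted them per gene with featureCounts 2.0.1. The authors deposited these raw counts, not normalized. Annotation, strand setting and read or pair counting are not given in the sources used here. The sample files and the series table held the same values (0 differed). Gene IDs were matched without version to GENCODE M21 (55227 of 56262 found). Counts were analysed in R 4.3.3 with edgeR 4.0.16 (filterByExpr, TMM, quasi-likelihood test, genotype alone), with Benjamini-Hochberg adjustment over 22071 genes. Calls used an adjusted p under 0.05, alone or with a fold change over 1.5. Standard errors were taken as the log2 fold change over the square root of F. FPKM is TMM-scaled CPM per kilobase of exon union. Intervals are at 95%. Alternatives were other scalings, filters, DESeq2 1.42.0, limma-voom (limma 3.58.1), a replicate block, a fold over 2, other lengths and leaving out each sample. The tests were checked on simulated data with few changed genes and no shift in tissue content. That check does not cover libraries that differ as widely as these. Members and lists were chosen with earlier results of these data known. Named were the 9 members, their family paralogs, and up to 25 other list genes called at the fold threshold without overlap. *Perm1*, *Nrf1*, *Tfam*, *Fndc5*, *Prkaa2*, *Rcan1*, *Rcan2*, *Maf*, *Mef2b*, *Mef2c*, *Mef2d*, *Dach2*, *Myh7*, *Tnni1*, *Myh7b*, the TEAD genes and the muscle markers fell outside this rule and were chosen after their values were seen. Some genes are not reported here.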

Additional observations from a re-analysis of the deposited data

How the results depend on the processing

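All 126 values of the 9 members under the other settings listed in the methods kept a log2 fold change above 0, and 113 also kept their side of an adjusted p of 0.05. *Prox1* lost its call with library size only (0.066), without a filter (0.13), with DESeq2 (0.14), with the replicate block (0.13, adjusted p = 0.0951), and without each sample in turn (0.11 to 0.15). With upper-quartile factors *Nfatc1* (0.15) and *Nfix* (0.17) were called, while with library size only they were 0.017 (adjusted p = 0.788) and 0.030 (adjusted p = 0.717), and *Vgll2* was called without WT replicate 2 (0.039 to 0.17 over the samples left out). The cause was not tested. Same-numbered WT and KO samples deviated from their group means with correlations of -0.44, -0.41 and 0.34 over 15873 genes. The highest correlation was between differently numbered samples, WT replicate 2 and KO replicate 1 (0.53). The labels do not say whether a number marks a shared batch, and these correlations cannot settle it. The replicate block changed no other call of a member. A fold change over 2 left 1 member higher, and 4 other regulators higher and 1 lower. The longest transcript moved the mean WT FPKM of *Esrra* to 9.61, *Esrrg* to 0.651, *Nfatc1* to 14.2, *Nfix* to 41.8, *Prox1* to 2.66, *Sox6* to 3.75 and *Tbx15* to 36.0, as their exon unions are longer. Per summed count of 9 muscle markers, an alternative chosen after seeing the data that makes 97.5% of all genes lower because its divisor rose 2.24-fold, the differences were -0.84 (*Esrra*), -0.38 (*Esrrg*), -1.08 (*Nfatc1*), -1.06 (*Nfix*), -0.15 (*Ppargc1a*), -1.03 (*Prox1*), -0.95 (*Sox6*), -0.84 (*Tbx15*) and -1.06 (*Vgll2*). The log2 ratio of *Nfix* to *Nfatc4* (-0.0075) was -0.035 to 0.040 over the samples left out and turned without WT replicate 2 or KO replicate 2. Of the members, *Esrrg* had the fewest counts (from 287) and so the largest counting error.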

Other observations

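For the members, the genes whose pattern over the 6 samples was most like theirs were sought among 15864 genes with a mean of at least 1 CPM, by the root mean square difference of log2 CPM centred on each gene's mean. *Crat*, which encodes carnitine acetyltransferase, was closest to *Ppargc1a* with a difference of 0.016, with WT and KO means of 88.5 and 178 CPM. *Rbpms* was closest to *Tbx15* (0.014), *Clasp2* to *Sox6* (0.014), *Nup133* to *Prox1* (0.0078), *Sdk1* to *Nfatc1* (0.010), *Col23a1* to *Esrra* (0.015), *Dlg4* to *Nfix* (0.018) and *Stc2* to *Vgll2* (0.020). With 6 samples and most of the variation lying between the genotypes, such a likeness mainly states a similar fold change.

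Promoters of 7 of the 9 members were in the RefSeq table, with 19 starts in all. The letters AAGGTCA, the core of the ERR response element, were found on either strand in the 250 bases before 2 of 4 starts of *Nfix* and 2 of 6 starts of *Sox6*, and before no listed start of *Esrra*, *Esrrg*, *Ppargc1a*, *Prox1* or *Vgll2*, beside 4.08% of all 32851 promoters. The letters CATTCC, the MCAT motif of TEAD factors, were found in 12.64% of all promoters, and among the members before 1 of 4 starts of *Esrrg* and 2 of 6 starts of *Sox6*.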
